A study of Mus musculus with 4 samples.

Results

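The Iroquois homeobox genes *Irx1* to *Irx6* were followed across 4 groups of whole mouse embryos. They were found as the probes, other than controls, whose gene name in the scanner output is that of a member, which gave 6 probes of 56604, 1 for each of 6 genes among 37325 names on the array. Iroquois genes encode transcription factors of the TALE class of homeodomain proteins. They lie in 2 clusters of 3 genes, IrxA with *Irx1*, *Irx2* and *Irx4* and IrxB with *Irx3*, *Irx5* and *Irx6*, and the members of 1 cluster are known to share many enhancers and sites of expression. They are known for dividing the neural plate and neural tube into territories, for the identity and conduction of the heart chambers, and for early limb and kidney development.

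The groups were wild type (WT) and *Dyrk2*-/- embryos, the latter labelled DYRK2-KO, of strain C57BL/6 at E8.5 and E10.5 (E for embryonic day), and total RNA of each group was hybridized to 1 one-colour Agilent array. *Dyrk2* encodes a protein kinase, and the mutants carry small deletions made with the CRISPR/Cas9 nickase system. Which deletion the embryos on the arrays carried, and how many embryos gave each RNA, is not given in the sources used here. With 1 array per group no difference between genotypes at a stage had a replicate check, and none was given a p-value.

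Values are log2 of the processed intensity of a spot minus the 75th percentile of its array, so that 0 is the signal of that percentile and a difference of 1 is 2-fold. A probe is called detected where the scanner software marks its spot as well above background. Precision is limited by 1 spot on 1 array. The software's error model gives the Irx values an error of about 10% of the signal, apart from *Irx6* at E8.5, which makes about 0.20 on the log2 scale for a difference of 2 arrays, and spots of the same probe on 1 array had a median SD of 0.07 to 0.12 on the log2 scale. Neither covers the difference between embryos. Each Irx gene has 1 probe in 1 spot, so that no other probe checked it.

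*Dyrk2* itself was examined first. Its brightest probe was 1.62-fold higher on the mutant-labelled array than on the WT array at E8.5 (log2 0.76 and 0.06) and 1.57-fold higher at E10.5 (0.34 and −0.31), and its other probe was 1.02-fold and 1.21-fold higher. A small deletion need not lower a transcript at a probe outside it, so these values did not check the labels, and all directions between genotypes below rely on them. The arrays are therefore written as labelled *Dyrk2*-/-. *Xist*, the transcript of the inactive X chromosome, was detected at E10.5 in the RNA labelled *Dyrk2*-/- and on no other array, and the brightest probe of the Y-linked gene *Ddx3y* on every array but that one. These 2 genes were chosen after their values were seen, and at E10.5 the genotype and the sex of the embryos cannot be told apart. The array labelled *Dyrk2*-/- at E10.5 differs in these genes from the one at E8.5 too, so the comparison of stages in that genotype, and in part limma's, also compares sexes.

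All 3 IrxA genes were lower at E10.5 than at E8.5 in both genotypes under every scaling tried, though by the spike-in controls *Irx2* and *Irx4* were lower by only 0.00 and 0.09 where labelled *Dyrk2*-/-. *Irx1* (NM_010573), known from the developing nervous system, lung and limb, is probed on chromosome 13 of mm9 at 72095735 to 72095794. Its WT intensity was 4660 at E8.5 and then 2696, and on the arrays labelled *Dyrk2*-/- it was 4069 and then 2155. After scaling, its log2 values went from 3.58 to 2.61 in WT and from 3.64 to 2.41 in the other genotype. Both E8.5 arrays thus lay above both E10.5 arrays, with a gap of 0.97 between the nearest values against an error of 0.20, and within each stage the genotypes differed by less than that error.

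*Irx2* (NM_010574), which shares much of the *Irx1* pattern in the embryo, is probed at 72770897 to 72770956 on the same chromosome, 675 kb from the *Irx1* probe. From E8.5 to E10.5 it read 1494 and 1062 intensity units in WT, and 1095 and 868 where labelled *Dyrk2*-/-. The log2 values of *Irx2* went from 1.94 to 1.26 in WT and from 1.74 to 1.103 in the other genotype. The stages did not overlap here either, with 0.48 between the nearest arrays, whereas the genotypes differed by 0.19 at E8.5 and 0.16 at E10.5, within the error of 0.20. *Irx4* (NM_018885), a marker of the ventricles of the heart that keeps atrial genes off there, is probed at 73406712 to 73406771, 636 kb farther on. Its intensities were 239 (E8.5) and 181 (E10.5) in WT, and 202 and 151 in the RNA labelled *Dyrk2*-/-. On the log2 scale *Irx4* again made a higher E8.5 pair, −0.71 (WT) and −0.69, and a lower E10.5 pair, −1.29 (WT) and −1.42, at 0.58 apart.

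The 3 IrxB genes went 3 ways. *Irx3* (NM_001253822), which takes part in neural tube patterning and in ventricular conduction, is probed on chromosome 8 of mm9 at 94322476 to 94322535. In WT it read 4790 at E8.5 and then 3678, and where labelled *Dyrk2*-/- 4184 and then 3312. The scaled *Irx3* values went from 3.62 to 3.05 in WT and from 3.68 to 3.03 in the other genotype. *Irx3* therefore had the order of the IrxA genes, with 0.56 between the stages and 0.06 or less between genotypes within a stage.

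*Irx5* (NM_018826), which lies 562 kb from *Irx3* at 94884923 to 94884982 and acts with it in heart and limb, gave WT intensities of 364 (E8.5) and 409 (E10.5), and 291 and 399 where labelled *Dyrk2*-/-. On the log2 scale *Irx5* went from −0.10 to −0.12 in WT and from −0.17 to −0.02 in the other genotype. No neighbours in the order of these 4 values were farther apart than 0.08, against an error of 0.20, so that *Irx5* had no order that the error of an array would leave standing. *Irx6* (NM_022428), the least studied member, is probed at 95203880 to 95203939, 319 kb beyond *Irx5*. Its spot was at 15.0 intensity units on the WT array at E8.5, where it was not detected, and at 23.8 on the array labelled *Dyrk2*-/-, where it was. At E10.5 the *Irx6* spot read 124 (WT) and 94.5. The log2 values of *Irx6* went from −4.70 to −1.83 in WT and from −3.78 to −2.096 in the other genotype, so that it alone among the 6 was higher at E10.5 on both genotypes by more than the error. At E8.5 the error model gives *Irx6* 24.0% (WT) and 17.4% of its signal.

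**Figure D1:**
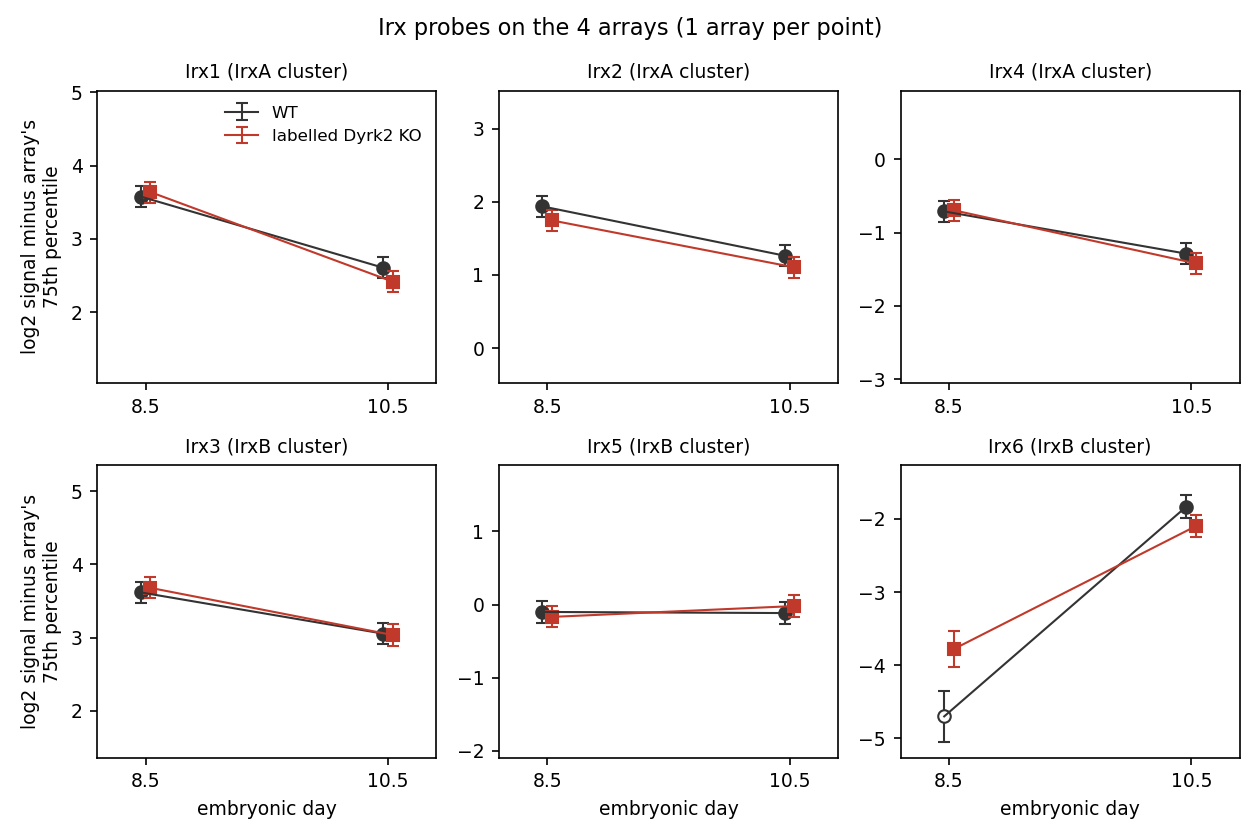
Log2 signal minus the 75th percentile of the array for the probe of each Irx gene (y axis; each panel spans 4 log2 units) against embryonic day (x axis), with WT as black circles and the arrays labelled *Dyrk2*-/- as red squares; each point is 1 array, bars are the error of the scanner software's error model, and the open circle was not detected. *Irx1*, *Irx2*, *Irx4* and *Irx3* sit lower at E10.5 in both genotypes, *Irx5* lies between −0.17 and −0.02 on all 4 arrays, and *Irx6* goes from −4.70 to −1.83 in WT.

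The comparison of the stages within a genotype asks how the family moved from early somite stages to mid organogenesis. A gene was counted as changed at 1.5-fold or more, among probes detected on 1 or both of the arrays compared. In WT this held for 3 of 6 Irx genes, beside 35.7% of 33491 probes. *Irx1* was 1.96-fold and *Irx2* 1.60-fold lower at E10.5, 2 genes beside 17.4% of probes, and *Irx6* was 7.30-fold higher, 1 gene beside 18.3%. In WT *Irx6* entered through the E10.5 array alone, so that the filter set its direction. The call of *Irx2* was lost with quantile normalization (−0.57), with the deposited table (−0.57) and without scaling (−0.49). Where a probe was not detected on 1 array, the fold is a bound, taken against the higher of its own value there and the dimmest detected probe of that array. For *Irx6* its own value was the higher, so that its fold is the measured ratio to an undetected spot and no lower limit. *Irx4* and *Irx3* lay just under the threshold in WT, at 1.49-fold and 1.48-fold lower, and *Irx5* was at 1.01-fold.

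On the arrays labelled *Dyrk2*-/- the count was 5 of 6, beside 31.4% of 32910 probes. It was 3 with quantile normalization and with the deposited table, and 2 without scaling, with the spike-in scaling and with normexp. Lower at E10.5 were *Irx1* (2.34-fold), *Irx4* (1.65-fold), *Irx2* (1.56-fold) and *Irx3* (1.56-fold), 4 genes beside 14.4% of probes, and *Irx6* was 3.21-fold higher, 1 gene beside 17.0%. With normexp the log2 ratio of *Irx6* between the stages was 0.55 there, under the threshold, and 1.06 in WT, so that its size rests on how dim spots are treated. The difference between a count of 3 and a count of 5 rests on *Irx4* and *Irx3*, whose log2 ratios of −0.58 and −0.56 in WT and of −0.73 and −0.64 on the arrays labelled *Dyrk2*-/- differed by less than the error of 1 ratio. Whether the stage difference of any Irx gene depends on the genotype could not be tested with 1 array per group. Many probes of these whole embryos moved between the stages, and with 6 members no count of this size was read as particular to the family.

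An additive limma model of genotype and stage, with 1 residual degree of freedom, compared both E10.5 arrays with both E8.5 arrays over 32289 probes detected on 2 arrays or more. At an adjusted p under 0.05, 5 of 6 Irx genes passed, beside 35.3% of probes. Of these, 4 fell, beside 19.6% of probes, and 1 rose, beside 15.7%. *Irx1* fell by 1.098 on the log2 scale (95% interval −1.38 to −0.82, limma adjusted p = 0.000207), *Irx2* by 0.66 (−0.94 to −0.38, limma adjusted p = 0.00364), *Irx4* by 0.65 (−1.0 to −0.30, limma adjusted p = 0.0107) and *Irx3* by 0.60 (−0.87 to −0.34, limma adjusted p = 0.00403), each lower on 2 of 2 E10.5 arrays than on either E8.5 array. *Irx6* rose by 2.27 (1.57 to 2.97, limma adjusted p = 0.000598), a difference that takes in the undetected E8.5 WT value and was 0.81 with normexp. *Irx5* differed by 0.07 (−0.25 to 0.38, limma adjusted p = 0.745), an interval that leaves room for a modest change either way. With 1 residual degree of freedom against 8.07 that limma borrows from all probes, the intervals mostly carry the spread of other probes of like intensity.

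These calls depended on how the arrays were scaled. With the spike-in controls (their median) in place of the 75th percentile, *Irx6* alone passed limma's threshold for stage, and without scaling *Irx1*, *Irx2* and *Irx6* did. Without the intensity trend in limma's variances *Irx3* (limma adjusted p = 0.0571) and *Irx4* (limma adjusted p = 0.0514) did not pass, at the same differences. The spike-in scaling moved the median log2 ratio of all probes to −0.15 in WT and to 0.58 on the arrays labelled *Dyrk2*-/- for the stages, from −0.08 and −0.06, and no scaling moved it to 0.10 and 0.25. By the spike-in controls the WT differences were larger, at −1.04 (*Irx1*), −0.74 (*Irx2*), −0.65 (*Irx4*) and −0.63 (*Irx3*). On the arrays labelled *Dyrk2*-/- the same controls put *Irx1* at −0.58 and *Irx2*, *Irx3* and *Irx4* at −0.00, −0.01 and −0.09, so that there the last 3 genes were lower relative to other probes and hardly so by the controls. *Irx5*, level by the 75th percentile, was at 0.79 there by the controls, which is past 1.5-fold, and at 0.45 without scaling. Relative to the median of all probes, which no constant shift of an array alters, *Irx1* lay at −0.89 in WT and −1.16 on the arrays labelled *Dyrk2*-/-, *Irx2* at −0.59 and −0.58, *Irx4* at −0.50 and −0.66, and *Irx3* at −0.48 and −0.58. *Irx5* lay at 0.07 and 0.21 and *Irx6* at 2.95 and 1.74 on that measure.

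**Figure D2:**
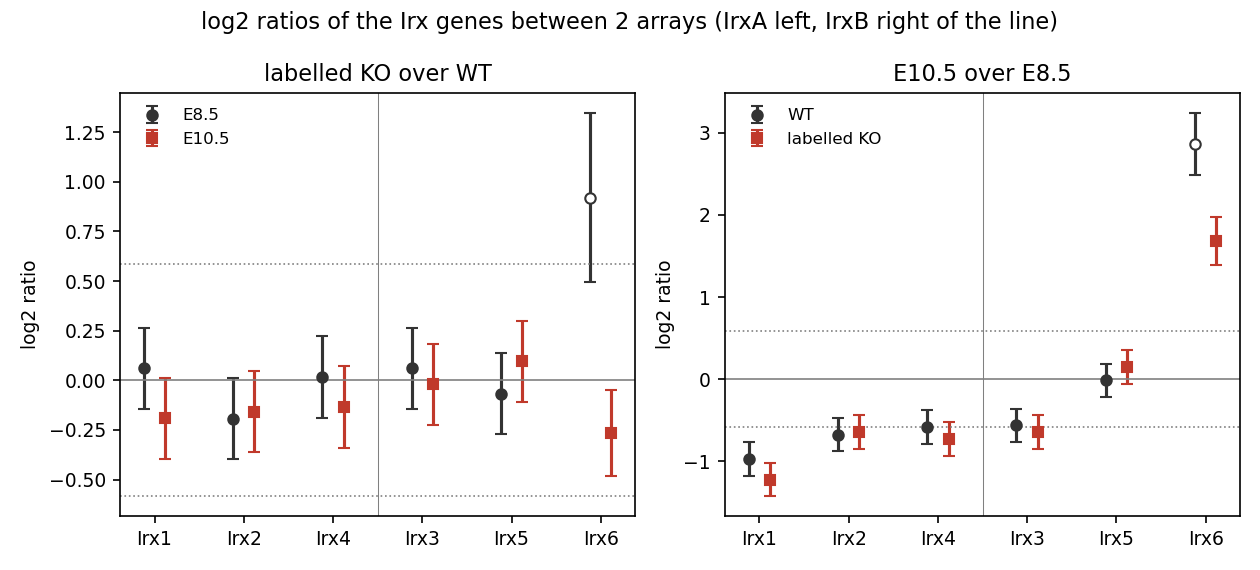
Log2 ratios of the 6 Irx genes (y axis) between 2 arrays, labelled *Dyrk2*-/- over WT at E8.5 (black circles) and E10.5 (red squares) on the left, and E10.5 over E8.5 in WT (black circles) and labelled *Dyrk2*-/- (red squares) on the right; bars are the error model's error of the difference, dotted lines mark 1.5-fold, and open circles have 1 array on which the probe was not detected. Between genotypes *Irx6* at E8.5 (0.92) stands outside the dotted lines, whereas between the stages *Irx1*, *Irx2*, *Irx4* and *Irx3* lie from −0.56 to −1.22 and *Irx6* at 2.87 and 1.68.

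Between the genotypes the Irx genes differed little. At E8.5 the count of genes at 1.5-fold or more was 1 of 6, beside 11.8% of 32015 probes. The gene was *Irx6*, 1.89-fold higher on the array labelled *Dyrk2*-/-, from a spot of 23.8 intensity units against an undetected 15.0. Its log2 ratio of 0.92 carried an error of 0.43, and 1.89 is the measured ratio and no lower limit. *Irx6* entered this comparison through the array labelled *Dyrk2*-/- alone, so that the filter set its direction. With the normexp background correction, which damps dim spots, that ratio was 0.38 and the gene was not called. It also lost its call with the spike-in scaling, at 0.37, where *Irx2* (−0.74) and *Irx5* (−0.61) were called lower in its place. The other 5 genes had log2 ratios of 0.06 (*Irx1*), −0.19 (*Irx2*), 0.02 (*Irx4*), 0.06 (*Irx3*) and −0.07 (*Irx5*), all within the error of about 0.20. The signs of *Irx1*, *Irx4* and *Irx3* turned negative without scaling and with the spike-in scaling, which moved the median of all probes to −0.26 and −0.55. With the spike-in scaling these 3 genes were at −0.49, −0.53 and −0.49.

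At E10.5 the count was 0 of 6, beside 7.99% of 32884 probes. In the RNA labelled *Dyrk2*-/- *Irx6* was 1.20-fold lower (log2 ratio −0.27, error 0.22), *Irx1* was at −0.19, *Irx2* at −0.16, *Irx4* at −0.13, *Irx3* at −0.02 and *Irx5* at 0.10. The 3 IrxA genes lay within 0.06 of each other there, on the lower side of all probes, since between 19.1% and 25.4% of probes had a lower ratio. The spike-in scaling, which raised the median of all probes to 0.17, turned *Irx2*, *Irx4* and *Irx3* to 0.00, 0.03 and 0.14, and without scaling, where that median was −0.13, *Irx5* was at −0.04. Over both stages limma called 0 of 6 Irx genes for genotype, beside 0.0186% of 32289 probes, and 0 of 6 had an unadjusted p under 0.05. Without scaling *Irx2*, at −0.37, had an unadjusted limma p of 0.0296 (limma adjusted p = 0.296). The intervals were −0.35 to 0.22 for *Irx1*, −0.46 to 0.11 for *Irx2*, −0.41 to 0.29 for *Irx4*, −0.24 to 0.29 for *Irx3*, −0.30 to 0.33 for *Irx5* and −0.37 to 1.03 for *Irx6*. A difference of 2-fold thus lay outside the interval for 5 genes and inside it for *Irx6*, at scaling by the 75th percentile. These intervals do not measure the difference between embryos, and at E10.5 genotype and sex cannot be told apart. They therefore set no limit on an effect of the genotype. With the spike-in scaling the standard errors were larger, at 0.67 for *Irx1* and 0.53 for *Irx4* against 0.12 and 0.15 here. A difference of 2-fold lay inside the interval there for these 5 genes too.

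The shares of higher and lower probes behind these comparisons moved with the scaling. At E8.5 the array labelled *Dyrk2*-/- had 2023 lower and 1763 higher probes, against 4723 and 808 without scaling and 14461 and 420 with the spike-in scaling. At E10.5 the split was 1388 lower and 1240 higher, against 2183 and 909 without scaling and 851 and 2118 with the spike-in scaling. For the stages it was 5829 lower and 6141 higher in WT (3907 and 8016 without scaling, 6925 and 5559 with the spike-in scaling) and 4729 and 5611 on the arrays labelled *Dyrk2*-/- (2330 and 9151 without scaling, 1364 and 16234 with the spike-in scaling). In limma's stage comparison 6335 probes were lower and 5062 higher, against 3010 and 8758 without scaling and 538 and 2095 with the spike-in scaling, and for genotype 2 were lower and 4 higher, against 615 and 114 without scaling.

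Within a cluster, the 3 IrxA genes had 1 direction between the stages and the IrxB genes did not, and the clusters were not tested against each other. Between the stages the IrxA log2 ratios spanned 0.39 in WT, from −0.97 (*Irx1*) to −0.58 (*Irx4*), and 0.58 on the arrays labelled *Dyrk2*-/-, where *Irx1* stood apart at −1.22. The IrxB ratios spanned 3.43 in WT, from −0.56 (*Irx3*) to 2.87 (*Irx6*), and 2.32 on the arrays labelled *Dyrk2*-/-. The WT span rests on the undetected *Irx6* spot at E8.5, and with normexp *Irx6* was at 1.06 and *Irx3* at −0.53, still on opposite sides of 0. Where labelled *Dyrk2*-/- normexp put *Irx6* at 0.55, *Irx3* at −0.59 and *Irx4* at −0.57, so that both spans and the gaps to *Irx6* shrink with it. The clusters arose by duplication, so that *Irx1* and *Irx3*, *Irx2* and *Irx5*, and *Irx4* and *Irx6* are counterparts. Of these pairs, *Irx1* and *Irx3* were both lower at E10.5, 0.41 apart in WT and 0.58 on the arrays labelled *Dyrk2*-/-. *Irx2* and *Irx5* were 0.66 and 0.79 apart, and *Irx4* and *Irx6* lay on opposite sides of 0, 3.44 and 2.41 apart.

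The likeness of 2 genes over the 4 arrays was measured as the root mean square difference of their log2 values after the mean of each probe was subtracted. By this measure the most alike pair of Irx genes was *Irx3* and *Irx4*, of different clusters, at 0.05. *Irx2* and *Irx4* followed at 0.07, and *Irx2* and *Irx3* at 0.11. *Irx1* lay 0.22 from *Irx4*, 0.24 from *Irx2* and 0.25 from *Irx3*, since it differed more between the stages. *Irx6* was farther from each other member, at 1.16 from *Irx5* and 1.47 or more from the rest.

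Other genes matched the 5 Irx genes detected on all 4 arrays at least as closely, among 18805 genes compared. Nearest to *Irx1* were *Firre* (0.02), *Foxc2* (0.03) and *Tent5b* (0.04), and 78 genes (0.415%) lay within 0.1 of it. *Irx2* was nearest to *Tspan7* (0.01), *Arxes1* (0.02) and *Apobec2* (0.02), with 454 genes (2.41%) within 0.1. *Irx4* was nearest to *Evc2* (0.01), *Papss2* (0.01) and *Rdh1* (0.02), with 659 genes (3.50%) within 0.1, and *Irx3* to *Rcc1* (0.01), *Tada2a* (0.01) and *Smim20* (0.01), with 1150 (6.12%). For *Irx5*, level at this scaling, there were 2294 such genes (12.2%), led by *Tomm7* (0.01), *Ufd1* (0.01) and *Fgfr1op2* (0.01). With 4 values a gene, close matches were common, except around *Irx1*.

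**Figure D3:**
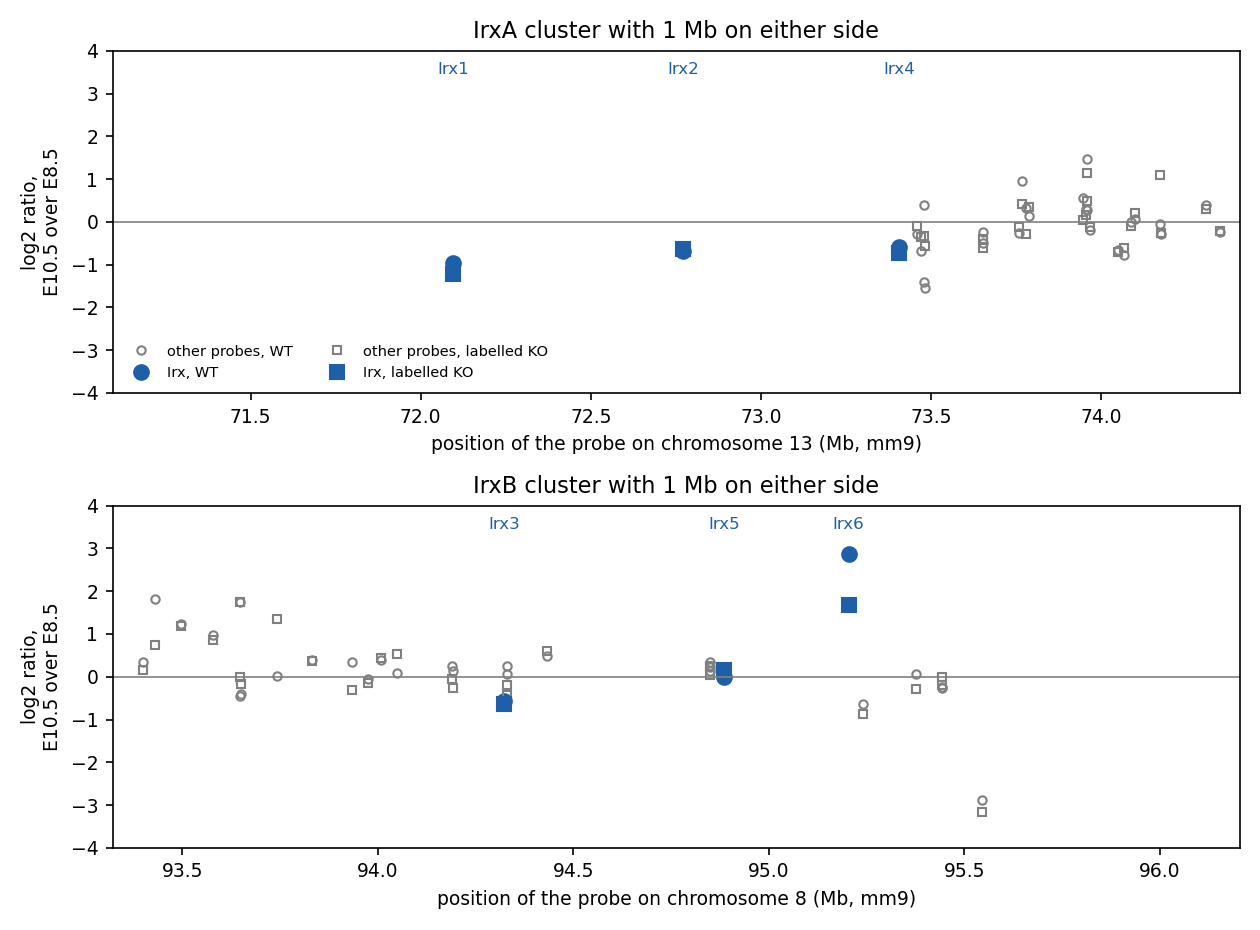
Log2 ratio of E10.5 over E8.5 (y axis) against the position of each probe on mm9 (x axis, Mb) across the IrxA cluster on chromosome 13 and the IrxB cluster on chromosome 8, each with 1 Mb on either side; filled blue marks are Irx genes, grey open marks other probes detected on 1 or both arrays of the comparison, circles WT and squares the arrays labelled *Dyrk2*-/-. No other probe within the IrxA cluster was detected, and inside IrxB the *Crnde* probes beside *Irx5* lie between 0.13 and 0.24.

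The surroundings of the clusters were compared through all probes within 1 Mb by the array's coordinates. The *Irx1*, *Irx2* and *Irx4* probes span 1311 kb, and 0 of the 7 other probes inside that span were detected on any array, and neither was any of the 3 before *Irx1*, so that the IrxA genes were the one signal in this stretch. Beyond *Irx4*, 24 of 34 probes were detected somewhere. Of the 24 that could be compared in WT, 2 were 1.5-fold or more higher and 5 lower at E10.5, with a median log2 ratio of −0.13, against −0.67 for the 3 IrxA genes. On the arrays labelled *Dyrk2*-/- 2 of 23 were higher and 3 lower, with a median of −0.12 against −0.73. Over all probes 35.7% and 31.4% passed that threshold, and the difference of the IrxA genes from this flank was not tested. Among these neighbours were *Ndufs6*, a subunit of respiratory complex I, at −0.29 in WT and −0.10 on the arrays labelled *Dyrk2*-/-, and *Trip13*, a remodeller of meiotic and spindle checkpoint proteins, at −0.65 and −0.69. Between genotypes 4 of 24 neighbours of IrxA and 4 of 25 of IrxB passed 1.5-fold at E8.5, beside 11.8% of all probes, and 0 of 23 and 1 of 25 at E10.5, beside 7.99%.

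The IrxB probes span 881 kb, with 9 other probes inside, of which 6 were detected on some array. *Crnde*, a long noncoding RNA that starts beside *Irx5* and runs away from it, went from 1.71 to 1.85 in WT and from 1.64 to 1.88 in the other genotype at its brighter probe. Its other probe went from 0.74 to 0.97 and from 0.83 to 1.07. *Irx3os*, the noncoding transcript on the strand opposite *Irx3*, was dim. The probe nearer to *Irx3* went from −3.72 to −3.66 in WT and from −4.20 to −4.40 in the other genotype, and was 1.40-fold (E8.5) and 1.67-fold lower on those labelled *Dyrk2*-/-. Its other probe was 1.66-fold higher there at E8.5 and 1.03-fold higher at E10.5, so that the 2 probes disagreed and gave *Irx3os* no direction. *Gm28515*, between *Irx3* and *Irx5*, was 1.39-fold (WT) and 1.52-fold higher at E10.5.

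Outside the IrxB cluster, 15 of 24 probes before *Irx3* and 5 of 21 after *Irx6* were detected. *Fto*, an RNA demethylase whose introns are known to hold enhancers that contact *Irx3*, was 1.1-fold higher at E10.5 in WT and 1.21-fold lower on the arrays labelled *Dyrk2*-/- at its brightest probe, and its 4 other probes were all higher in WT and divided on those labelled *Dyrk2*-/-. *Chd9*, a chromatin remodeller, was 1.95-fold and 1.81-fold higher at its brightest of 4 probes. The 26 neighbours compared between the stages take in the 6 detected inside the cluster. Over these 26 the median log2 ratio was 0.19 in WT, with 4 higher and 2 lower by 1.5-fold or more, and 0.02 on the arrays labelled *Dyrk2*-/-, with 6 higher and 2 lower. Over all probes 35.7% and 31.4% passed that threshold in these comparisons, and the difference of *Irx3* or *Irx6* from these neighbours was not tested.

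Lists of genes that work with Irx proteins or in the same tissues were read beside them. Of 12 other TALE homeobox genes (Meis, Pbx, Pknox, Tgif and *Mkx*), 5 rose and 2 fell between the stages by limma, with a median of 0.27. Over all probes limma called 15.7% higher and 19.6% lower between the stages, and between genotypes 11.8% (E8.5) and 7.99% (E10.5) passed 1.5-fold in either direction. No list below was tested against those shares or against the Irx genes. *Mkx*, the mohawk gene of tendon and the one closest to Irx in sequence, was 2.55-fold higher in WT and 2.30-fold higher where labelled *Dyrk2*-/-, and *Pknox1* 1.75-fold and 1.81-fold. *Tgif1* was 1.78-fold lower in WT and 1.44-fold lower where labelled *Dyrk2*-/-, and *Pknox2* 1.44-fold and 1.87-fold lower. Between genotypes 0 of these 12 passed 1.5-fold at either stage.

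Of 16 genes of neural patterning, a field in which *Irx3* sets progenitor boundaries, 15 were tested by limma, and 8 rose and 3 fell between the stages. *Atoh1* and *Neurog1*, among those that rose, were detected on neither E8.5 array. They entered the test through the E10.5 arrays alone, so that the filter set their direction. The proneural gene *Atoh1* was at least 30.3-fold (WT) and 17.3-fold (labelled *Dyrk2*-/-) higher, *Dbx1* of the intermediate neural tube 26.0-fold and 12.0-fold higher, and *Gbx2* of the hindbrain border 3.20-fold and 4.41-fold lower. At E8.5, 4 of 13 were 1.5-fold or more higher on the array labelled *Dyrk2*-/- (among them *Dbx1* 1.90-fold, *Neurog2* 1.81-fold and *Olig2* 1.75-fold) and *Nkx2-2*, not detected there, at least 1.97-fold lower. At E10.5 *Nkx2-2* was 1.98-fold lower and 0 of 15 higher. *Irx3* differed by 0.06 and −0.02 in the same comparisons.

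Of 16 genes of the heart chambers and conduction, the setting of *Irx4*, *Irx3* and *Irx5*, 15 were tested by limma, and 5 rose and 6 fell between the stages. *Kcnd2*, among those that rose, was detected on neither E8.5 array. It entered the test through the E10.5 arrays alone, so that the filter set its direction. *Nppa*, of the working chamber muscle, was 14.1-fold (WT) and 7.95-fold (labelled *Dyrk2*-/-) higher at E10.5 and *Gja5*, a connexin of chamber and conduction muscle, 5.22-fold and 2.71-fold. *Nkx2-5* was 4.83-fold and 3.79-fold lower, and *Hand1* 3.44-fold and 2.98-fold. *Kcnd2*, the channel gene that *Irx5* is known to repress, was at least 2.27-fold higher in WT and at least 1.37-fold where labelled *Dyrk2*-/-. At E8.5 *Myl2* (1.75-fold) and *Gja5* (1.66-fold) of 14 genes were higher on the array labelled *Dyrk2*-/-, and at E10.5 0 of 15 passed 1.5-fold.

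Of 12 genes of limb and hedgehog signalling, with which *Irx3* and *Irx5* interact in the limb bud, 1 rose and 6 fell between the stages by limma. *Hoxd13* was 10-fold (WT) and 4.16-fold (labelled *Dyrk2*-/-) higher. *Fgf8* was 3.62-fold and 3.26-fold, *Sall4* 2.77-fold and 2.97-fold, and *Etv4* 2.67-fold and 2.69-fold lower. Between genotypes *Hoxd13* at E10.5, 1.61-fold lower on the array labelled *Dyrk2*-/-, was the 1 gene past 1.5-fold. At E8.5 it differed the other way, at a log2 ratio of 0.58 just under the threshold, and limma put it at −0.05 over both stages.

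Whole embryos hold many cell types, and fewer cells of a type cannot be told apart from less RNA per cell. Markers of tissues that express Irx genes were read for the same comparisons. The summed signal of a list, in multiples of the 75th percentile of the array over its detected probes, is given for the WT and labelled *Dyrk2*-/- arrays at E8.5 and then at E10.5. For 10 heart muscle markers, led by *Myh6*, it was 300, 306, 181 and 181, and by limma 8 fell and 2 rose. Surface ectoderm and epithelium (6 genes, led by *Krt18*) read 151, 134, 31.3 and 38.3, and 5 fell. Nephric and intermediate mesoderm (6 genes, led by *Gata3*) read 13.2, 13.2, 11.8 and 10.4, with 5 lower and 1 higher. The 8 neural tube markers, led by *Sox3*, read 50, 49.6, 65.4 and 58.4 with 2 higher, and the 8 limb bud markers, led by *Prrx2*, 28.2, 24.6, 30.9 and 30.5 with 2 higher and 2 lower. The part of these tissues in the Irx differences was not tested.

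Markers of blood and of tissues around the embryo also separated the arrays. The 8 erythrocyte markers, led by *Hbb-bh1*, summed to 13 and 262 at E8.5 and to 817 and 982 at E10.5, and all 8 were at least 3.99-fold higher on the array labelled *Dyrk2*-/- at E8.5 than on the WT array, the comparison in which *Irx6* was called. At E10.5 6 of 8 were higher there by 1.5-fold or more, and by limma 8 of 8 rose between the stages and 0 of 8 passed for genotype. Yolk sac endoderm (8 genes, led by *Afp*) summed to 51.0, 33.1, 20.8 and 17.1, 6 of 8 were 1.5-fold or more lower on the array labelled *Dyrk2*-/- at E8.5, and 7 fell and 1 rose between the stages. Of 7 trophoblast and decidua markers on the array, led by *Gcm1* and with *Tpbpa* detected on no array, the sums were 16.0, 11.2, 16.4 and 19.4, and 2 rose and 3 fell of 5 tested. Every other marker was detected on some array. At E10.5, 7 of the 8 yolk sac and 4 of the 7 trophoblast and decidua markers were detected on 1 or both arrays. Any of the rest that limma tested entered through the E8.5 arrays alone, so that the filter set their direction. Their part in the values of the Irx genes was not tested.

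Promoters are shown for Irx genes that fell together between the stages, since the letters next to their starts are what a reader would compare. The RefSeq table of promoters (GRCm38.p6, a different build from the array's mm9 coordinates) matched 3 of 6 members, *Irx2*, *Irx4* and *Irx3*, and the 250 bases before each start were searched on both strands. Capitals mark GGGCGG, the GC box that Sp factors bind, which 32.7% of 32851 promoters hold in this stretch. *Irx2* lies at chr13:72628570-72628819 on the plus strand, *Irx4* at chr13:73260247-73260496 on the plus strand and *Irx3* at chr8:91801655-91801904 on the minus strand. The RefSeq gene models of *Irx2* and *Irx4* begin farther upstream, at 72624430 and 73259589, so that for these genes the table's start lies within the model.
Irx2: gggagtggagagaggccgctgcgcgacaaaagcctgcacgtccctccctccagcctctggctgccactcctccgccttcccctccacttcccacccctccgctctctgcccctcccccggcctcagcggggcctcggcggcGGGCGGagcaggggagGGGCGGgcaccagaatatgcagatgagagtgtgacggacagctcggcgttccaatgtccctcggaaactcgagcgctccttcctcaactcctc
Irx4: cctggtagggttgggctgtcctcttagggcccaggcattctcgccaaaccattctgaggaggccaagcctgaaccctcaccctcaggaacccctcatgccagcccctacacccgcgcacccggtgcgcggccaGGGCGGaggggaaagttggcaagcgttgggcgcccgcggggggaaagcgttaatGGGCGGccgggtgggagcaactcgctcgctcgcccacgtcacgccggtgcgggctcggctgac
Irx3: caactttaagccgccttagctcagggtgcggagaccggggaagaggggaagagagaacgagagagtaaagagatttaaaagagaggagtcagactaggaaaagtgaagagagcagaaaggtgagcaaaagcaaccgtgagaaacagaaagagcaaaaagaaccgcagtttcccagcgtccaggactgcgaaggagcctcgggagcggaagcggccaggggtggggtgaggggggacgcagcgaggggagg
The *Irx2* and *Irx4* stretches each held 2 GC boxes and that of *Irx3* 0. CCAAT, present in 33.8% of promoters, occurred 1 time before *Irx2* and in neither of the others, and TATAAA (12.4% of promoters) in none of the 3. ACANNTGT, the palindrome that Iroquois proteins are known to bind and that 6.31% of promoters hold, was in none of the 3 stretches. None of the matches overlapped another motif searched. The GC content was 68.4% for *Irx2*, 68.8% for *Irx4* and 56.0% for *Irx3*, against a median of 52.4% over all promoters, and the IrxA members held 19 and 22 CpG and *Irx3* 13, against a median of 6. A match of letters is a description and shows no binding.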

How the data were processed

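Total RNA of whole embryos was measured on 4 one-colour (Cy3) Agilent arrays, 1 per group. The deposited scanner output gives a linear processed intensity, with background taken off and spatial trends removed by Agilent Feature Extraction (10.7.1.1 per the file headers, 9.5.1.1 in the submitters' processing notes) with no scaling across arrays. How the authors scaled their table of intensities is not stated in the sources used here. Outlier spots were dropped, log2 values of spots of 1 probe averaged and each array set to its 75th percentile, and 1 of 56605 probes, without a value on an array, was left out. In WT 31370 (E8.5) and 31818 (E10.5) probes were detected, where labelled *Dyrk2*-/- 30226 and 31943, and 0 spots were saturated. Calls were made at 1.5-fold, the threshold the study used, without the bounds. limma 3.58.1 (lmFit, eBayes with an intensity trend, Benjamini-Hochberg) in R 4.3.3 fitted genotype and stage. The fit was tested on simulated data. Python 3.11.15, numpy 2.4.6, pandas 2.3.3, scipy 1.17.1 and matplotlib 3.10.9 were used. RefSeq accessions matched 32993 probes and renamed 1535, and the brightest probe stood for a gene.

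Genes named are the Irx genes, *Dyrk2*, genes probed within 1 Mb of either cluster, genes of the 4 partner lists and 8 marker lists changed 1.5-fold or more (at most 6 per list and comparison), the brightest marker of each list and those detected nowhere, and the 3 genes most like each Irx gene. *Xist* and *Ddx3y* were added outside this rule. Neighbours given as examples were picked from those in the window after their values were seen. The members and lists were chosen with earlier results of these data known. The alternatives were quantile normalization, no scaling, spike-in scaling (7 of 10 probes), the deposited table, normexp (offset 50), filters on dim probes, 2-fold, 1.5-fold with a Z-score over 2 or under −2, a mean over the probes of each gene, and a trend-free limma fit.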

Additional observations from a re-analysis of the deposited data

Results flagged for a closer look

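With 1 array per group, 5 Irx genes had log2 ratios between the genotypes of opposite sign at the 2 stages, and none of these differences was tested. The E10.5 ratio minus the E8.5 ratio was −1.19 for *Irx6*, which went from 0.92 to −0.27, and the E8.5 ratio rests on an undetected WT spot. For *Irx1* it was −0.25 (0.06 and −0.19), for *Irx4* −0.15 (0.02 and −0.13) and for *Irx3* −0.081 (0.06 and −0.02). For *Irx5* it was 0.16 (−0.07 and 0.10), and the same 4 values put the E10.5 over E8.5 ratio of *Irx5* at −0.02 in WT and 0.15 on the arrays labelled *Dyrk2*-/-, also 0.16 apart. Each of these ratios except those of *Irx6* lay within the error of about 0.20 that the scanner software gives a difference of 2 arrays, and the signs of *Irx1*, *Irx4*, *Irx3* and *Irx5* turned at 1 or both stages with the scaling.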

How the results depend on the processing

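At E8.5, 1 Irx gene was called between genotypes. The count was 2 with the spike-in scaling (*Irx2* and *Irx5*, lower, and not *Irx6*), and 0 with normexp, with a filter on both arrays, at 2-fold and with the Z-score. The filter left *Irx6* out, and its log2 ratio of 0.92 was under 2-fold. The spike-in scaling put all ratios of this comparison lower by the same amount, with *Irx6* at 0.37. For normexp and the Z-score the cause was not tested. At E10.5 the count was 0 under every alternative run. Between the stages in WT the 3 calls became 5 with the spike-in scaling and 1 at 2-fold and with the Z-score, and 2 without scaling (without *Irx2*) and with the filter on both arrays (without *Irx6*). Quantile normalization and the deposited table kept 3, with *Irx4* (−0.66) in place of *Irx2* (−0.57). On the arrays labelled *Dyrk2*-/- the 5 calls became 3 with quantile normalization and the deposited table, 2 without scaling, with the spike-in scaling, with normexp (without *Irx2*, *Irx4* and *Irx6*) and at 2-fold, and 0 with the Z-score. No scaling and the spike-in scaling each shift all ratios of a comparison by the same amount. For quantile normalization, the deposited table and normexp the cause was not tested. limma's 5 stage calls became 3 without scaling, 1 with the spike-in scaling and 3 without the trend (without *Irx3* and *Irx4*), and its 0 genotype calls stayed 0 under all 8 alternatives. Over those 8, the adjusted p for stage ran from 1.15e-18 to 0.824 for *Irx1*, from 1.11e-06 to 1 for *Irx2*, from 5.99e-06 to 1 for *Irx3*, from 0.00206 to 1 for *Irx4* and from 0.152 to 1 for *Irx5*, and over 7 from 1.71e-16 to 0.0228 for *Irx6*, which was not tested where detection on all 4 arrays was required. The lowest adjusted p of each gene came without scaling or with no filter. There limma borrowed 242.77 and unlimited degrees of freedom, against 8.07 in the main fit, so that these p rest on the spread of other probes. Of 12 genotype ratios, the sign turned in 6 with the spike-in scaling, 4 without scaling, 1 each with quantile normalization and the deposited table and 0 with normexp. Of 12 stage ratios it turned in 1 without scaling and 1 with normexp, both times *Irx5* in WT. The mean of all probes of a gene gave the same values, since each Irx gene has 1 probe. Leaving out an array would leave limma no residual degree of freedom. Signal over background limits *Irx6* at E8.5. Counts over all probes moved by over 1.5 times as follows, in the order spike-in scaling where it did so, normexp, filter on both arrays where it did so, no filter, 2-fold and Z-score. At E8.5, 3786 became 14881, 782, 2202, 10523, 1354 and 1346. At E10.5, 2628 became 421 (normexp), 1311, 8138, 925 and 1202. For the stages, 11970 in WT became 6408 (normexp), 18394 (no filter), 6169 and 2085, and 10340 in the other genotype became 17598, 4757, 16733 (no filter), 5196 and 1985. limma's 11397 for stage became 2633 with the spike-in scaling and 6437 without the trend, and its 6 for genotype became 29 (quantile), 729 (no scaling), 37 (spike-in), 40 (deposited table), 25 (normexp), 10 (detection on all 4 arrays), 564 (no filter) and 0 (no trend).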
